A study of Mus musculus with 61 samples.

Results

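The genes named Zfp900 to Zfp999 are mouse zinc finger genes, and they were chosen by symbol alone: every row of the deposited count table named Zfp9 followed by exactly 2 digits. This rule found 32 of the 19462 genes in the table, with symbols from Zfp930 to Zfp964. The rule took no measured value. A further 24 genes of the table carry a name from Zfp900 to Zfp999 in GENCODE M21 but an older symbol in the table, so they are not members. Most of the proteins of this family pair a KRAB domain with a row of zinc fingers. In the textbook account, the fingers bind chosen DNA sequences, often in retroelements, and the KRAB domain recruits Trim28, which brings the histone methyltransferase Setdb1 and other silencing factors to the site. The genes lie in clusters of young paralogs that were made by duplication, and copy number and sequence in such clusters vary between mouse strains.

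Skeletal muscle RNA was sequenced in 61 libraries. They come from the 8 inbred founder strains of the Diversity Outbred mice: AJ, 129, NZO, WSB and B6 with 8 libraries each, and NOD, Cast and PWK with 7 each. Cast, PWK and WSB are wild-derived. All libraries share the high-fat, high-sugar diet and the label of 45 percent fat, and no strain is labelled as a control, so each strain was set against the other 7. Sex, age and batch are not in the labels, which also leave unsaid whether each library is a separate animal. The p-values therefore speak only of the spread among libraries, which may be technical in part. Xist was above Ddx3y in 31 of the 61 libraries, with 3 or 4 such libraries in each strain, so the spread within a strain includes both sexes.

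Library totals were 17.1 to 65.2 M estimated counts (median 33.7 M). The ribosomal gene Rn18s-rs5 took 46.3% of the counts of library B6_5, against at most 9.76% elsewhere. The 12 muscle fibre markers summed to 132190.5 to 211397.8 CPM (counts per M counts of the TMM-adjusted library size). The 10 adipocyte markers summed to 477 to 4182.3 CPM, the 10 hepatocyte markers to 4.4 to 6613.2 CPM, the 10 lymphocyte markers to 0.51 to 118 CPM, and the 6 keratinocyte markers in the table, of 10 listed, to 1.91 to 387 CPM. No marker was at 0 in every library. In such bulk samples, fewer cells of a type and less RNA per cell cannot be told apart.

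The 32 genes lie on 12 chromosomes of GRCm38, and all of them were found in GENCODE M21. A cluster was taken as a run of members whose successive starts lie within 1 Mb. There were 3 clusters with 12 members in all, and the other 20 members had no other member that near. Genes that are not members were left out of this rule. A member outside the clusters can thus lie beside other zinc finger genes, as Zfp956, which overlaps Zfp783, does. The largest cluster, on chromosome 17, held Zfp948, Zfp942, Zfp943, Zfp947, Zfp944, Zfp946 and Zfp945 in order of position, from Zfp948 at chr17:21567046-21588697 to Zfp945 at chr17:22846697-22867134. The cluster on chromosome 8 held Zfp930, Zfp964 and Zfp963, and that on chromosome 13 held Zfp935 and Zfp934.

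The members were read for their protein parts from the M21 coding sequences. Of the 31 with a coding sequence, 29 (93.5%) held a short run of residues typical of the KRAB domain, against 133 of the 312 other numbered Zfp genes (42.6%). The members had a median of 11 zinc fingers of the classical kind (range 0 to 18), against a median of 10 in the other numbered Zfp genes. Zfp945 had the most, with 18 fingers in 794 residues. Zfp956 had 6 fingers and no match to the KRAB run, Zfp957 had neither, and the annotated protein of Zfp935 stopped at 150 residues with a KRAB match and 0 fingers. Zfp939 is annotated as a transcribed pseudogene.

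Inside the chromosome 17 cluster, Zfp942 and Zfp943 start 88 bases apart on opposite strands, and Zfp944 starts 53 bases from Zfp758, a zinc finger gene outside the number range, also on the opposite strand. The stretches between these starts are printed because the same words recur in both and because the genes at their ends are compared below. Each is given 5′ to 3′ on the plus strand of GRCm38.p6, from RefSeq, and the capitals mark a palindromic E box (CACGTG) and, in the first, a GC box (CCGCCC, the other strand of GGGCGG). The first is chr17:21962465-21962551 and the second chr17:22361401-22361452.
Zfp942 to Zfp943: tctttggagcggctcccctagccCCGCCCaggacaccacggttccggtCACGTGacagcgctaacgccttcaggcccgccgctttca
Zfp944 to Zfp758: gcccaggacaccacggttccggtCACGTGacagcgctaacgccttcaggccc
The whole 52 bases of the second stretch stand unbroken in the first. The 300-base RefSeq start windows of Zfp943 and Zfp758 (250 bases before the start and 50 after) share an identical run of 248 bases. Among all 32851 RefSeq start windows, only those of Zfp942, Zfp943, Zfp944 and Zfp758 held the 52 bases.

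The E box CACGTG, which reads the same on both strands, was found in the start window of 6 of the 29 members with one (20.7%), against 7.2% of 27025 genes, with the first window listed for each gene in both counts. Zfp942 and Zfp943 were both counted for 1 site that lies between them. Of these 6, Zfp942, Zfp943, Zfp944, Zfp946 and Zfp947 lie in the chromosome 17 cluster, and Zfp933 lies on chromosome 4. The site of the cluster members is shown in the direction of each gene, with 12 bases either side of the E box in capitals, to compare its surroundings. The sites are chr17:21962501-21962530 (minus strand), chr17:22361412-22361441 (minus), chr17:22424180-22424209 (plus) and chr17:22166031-22166060 (minus) in the order printed.
Zfp942: cgttagcgctgtCACGTGaccggaaccgtg
Zfp944: cgttagcgctgtCACGTGaccggaaccgtg
Zfp946: tttggggggaacCACGTGaccggaaccggg
Zfp947: attttgggaaacCACGTGaccataaccacg
Zfp942 and Zfp944 had the same letters throughout, and Zfp946 shared an unbroken run of 16 bases with them that includes the E box. The Zfp947 site lies before the RefSeq start of the gene but inside the gene as the deposited annotation places it. GGGCGG on either strand was in the windows of 10 members (34.5%), against 35.9% of all genes. CCAAT on either strand was in 19 members (65.5%), against 37.9%. GGAAG, a form of the GGAA core read by ETS factors, was in 25 members (86.2%), against 71.1%. Other runs with GGAA, such as ccggaacc in the sites above, were not counted. A match is a run of letters in a window and was not tested as a bound site. Zfp960, Zfp934 and Zfp930 had no window.

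In muscle these genes were low. Over the 31 tested members the median of the mean level was 3.58 CPM, against 7.0 CPM over all 16682 genes tested. Per kilobase of exon, the highest members were Zfp943 at 3.51 CPM and Zfp949 at 3.02 CPM, and the lowest tested was Zfp957 at 0.0466 CPM. Zfp941 averaged 0.0376 CPM and did not pass the filter on low counts.

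Nearly all of the measured members differed among strains. With edgeR's quasi-likelihood F test over the 8 strains, 29 of the 31 tested members differed among strains at an adjusted p under 0.05, and 85.5% of all genes tested did so, so a high count among the members is near the background. The members not called were Zfp939 (adjusted p = 0.0819 by edgeR) and Zfp957 (adjusted p = 0.152 by edgeR). The range between the highest and the lowest strain was at least 1 log2 unit in 11 of the called members, against 39.7% of all genes tested. The median range was 0.92 log2 units over the members, 0.68 over the 306 other numbered Zfp genes tested and 0.91 over all genes tested. Of those other Zfp genes, 270 (88.2%) were called. Strain took a median of 52.7% of the variance of log2 CPM in the members, against 45.4% over all genes tested. In 20 of the 31 tested members every library of the highest strain lay above every library of the lowest strain, and the same held in 50.1% of all genes tested. Both extremes are picked from 8 strains, so nothing is read from this count about the members.

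**Figure D1:**
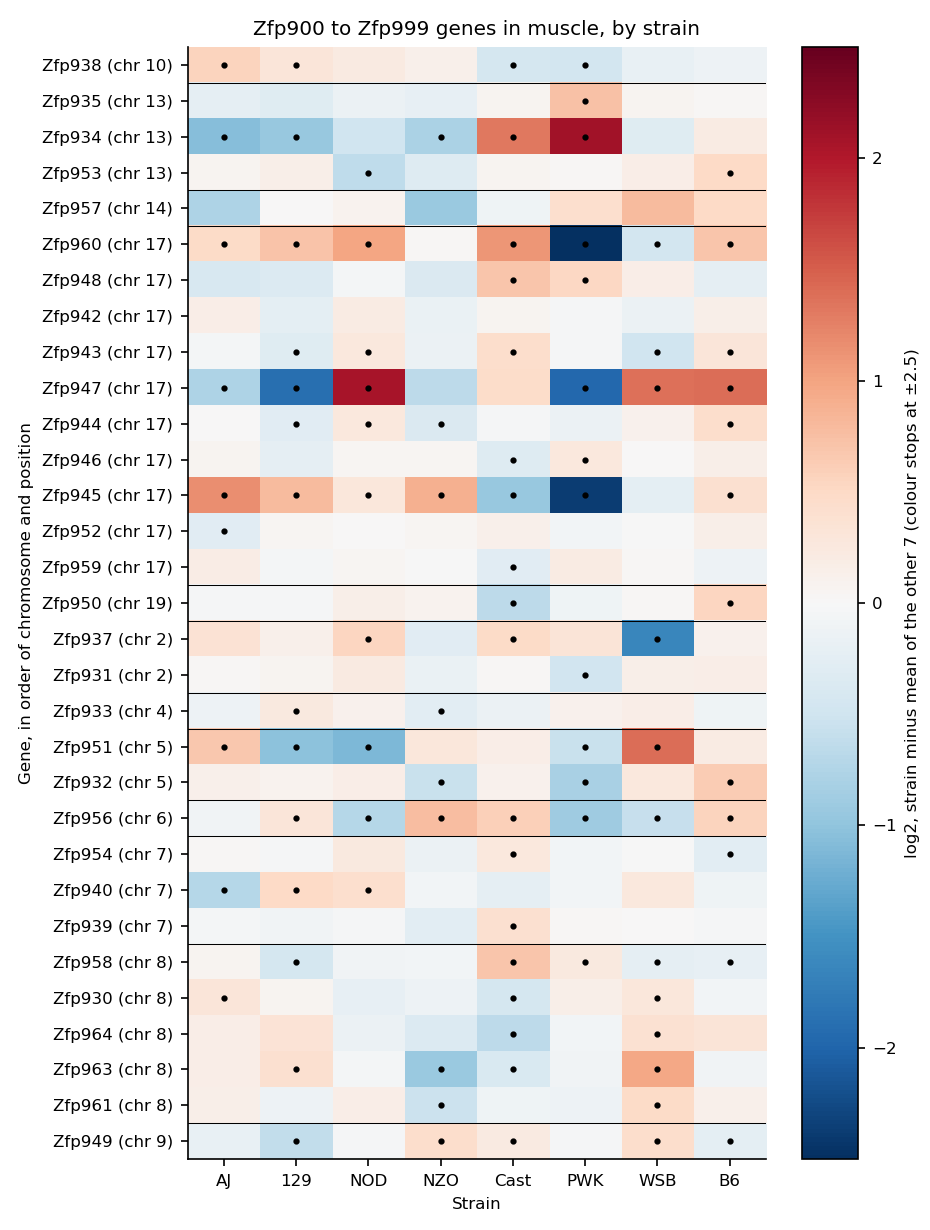
Rows are the 31 tested genes by chromosome and position, columns the 8 strains, and colour is the log2 difference of a strain from the mean of the other 7, with a dot where edgeR's adjusted p was under 0.05. The deepest blue cells are Zfp960 and Zfp945 in PWK, at -3.56 and -2.38, and the deepest red ones Zfp934 in PWK and Zfp947 in NOD, at 2.09 and 2.07.

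Zfp945, at the far end of the chromosome 17 cluster, had the largest F of the members and ranked 233 of the 16682 genes tested. It was highest in AJ at 7.83 to 10.7 CPM (median 9.84), followed by NZO at 6.67 to 12.3 CPM (median 7.36) and 129 at 6.32 to 9.56 CPM (median 7.18). B6 had 4.5 to 6.93 CPM (median 5.93), NOD 3.96 to 6.84 CPM (median 5.95) and WSB 3.46 to 5.21 CPM (median 3.71). Cast had 2.11 to 3.19 CPM (median 2.59) and PWK 0.583 to 1.53 CPM (median 1.08). Every PWK library was below every library of the other strains, every Cast library lay between PWK and the other 6 strains, and B6 and NOD overlapped. The range from AJ to PWK was 3.11 log2 units (adjusted p = 2.76e-25 by edgeR's F test over strains, n = 7 or 8 a strain).

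Zfp960 lies outside the clusters on chromosome 17, at chr17:17064113-17089628, and was nearly silent in PWK. PWK libraries had 0 to 0.741 CPM (median 0.268), from 0 to 30 counts, with 1 library at 0. Cast had 3.58 to 7.41 CPM (median 4.77), NOD 3.62 to 5.92 CPM (median 4.83), 129 3.72 to 4.87 CPM (median 3.96) and B6 2.56 to 5.9 CPM (median 3.79). AJ had 2.99 to 4.23 CPM (median 3.44), NZO 2.27 to 3.34 CPM (median 2.62) and WSB 1.55 to 2.52 CPM (median 1.94). All 7 PWK libraries fell below all others, at a log2 difference from the mean of the other 7 strains of -3.56 (SE 0.24, adjusted p = 3.02e-19 by edgeR). Zfp960 shares 81.4% of its 50-base words with Zfp97, so reads could be split between them. Zfp97 averaged 2.97 ± 0.684 CPM in PWK (SD, n = 7) and 3.13 to 5.73 CPM in the other strains, and was itself lowest in PWK. With the counts of the near-identical copies added, the sum in PWK stayed lower at -1.19 (adjusted p = 1.73e-14 by edgeR), and the range over strains was 1.42 in place of 4.08.

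Zfp963 lies in the chromosome 8 cluster, at chr8:69741639-69749970 on the minus strand. WSB libraries had 7.84 to 9.88 CPM (median 8.59), and 7 of the 8 were above every library of the other strains. 129 had 5.49 to 8.05 CPM (median 5.85), AJ 4.3 to 7.13 CPM (median 5.25) and NOD 4.28 to 5.7 CPM (median 4.72). PWK had 3.68 to 5.64 CPM (median 4.57), B6 3.7 to 6.24 CPM (median 4.53), Cast 2.8 to 5.36 CPM (median 3.65) and NZO 2.11 to 3.8 CPM (median 2.7). These lower 4 strains overlapped one another. The difference in WSB was 0.97 (SE 0.08, adjusted p = 8.55e-16 by edgeR) and in NZO -0.93 (SE 0.09, adjusted p = 3.54e-12 by edgeR). Zfp963 shares 38.7% of its 50-base words with Gm20422, an overlapping gene on the same strand for which no counts were used here.

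Zfp934, in the chromosome 13 cluster, was highest in PWK at 1.48 to 2.82 CPM (median 1.89) and next in Cast at 0.867 to 1.77 CPM (median 1.13). The other strains had medians from 0.263 CPM in AJ to 0.543 CPM in B6, where 1 library reached 1.23 CPM. PWK stood above all strains but Cast without overlap, and rose by a log2 difference of 2.09 from the other 7 (SE 0.18, adjusted p = 8.16e-15 by edgeR). Zfp934 has 9 near-identical copies in M21, of which 3 are in the count table. These 3, Zfp808, Gm3604 and 6720489N17Rik, share only 14.44%, 2.2% and 1.88% of its 50-base words. In AJ, Zfp808 averaged 1.05 CPM and Zfp934 0.277 CPM. A sum thus also holds the copies' own levels, and the part of split reads in it was not tested. With the counts of these 3 copies added, the rise was 0.83 in PWK (adjusted p = 9.62e-08 by edgeR). In Cast it was 0.4 (adjusted p = 0.00555 by edgeR), and the range over strains was 1.29 in place of 2.75. The lower calls in AJ and 129 ended, at -0.03 (adjusted p = 0.864 by edgeR) and -0.21 (adjusted p = 0.225 by edgeR).

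Zfp947, in the middle of the chromosome 17 cluster, split the strains into high and low ones. NOD had 1.02 to 1.71 CPM (median 1.47), B6 0.487 to 1.23 CPM (median 0.984) and WSB 0.494 to 1.12 CPM (median 1.0). Cast had 0.196 to 0.891 CPM (median 0.479), NZO 0.162 to 0.391 CPM (median 0.267) and AJ 0.164 to 0.381 CPM (median 0.207). 129 had 0.0289 to 0.219 CPM (median 0.145), from 1 to 8 counts, and PWK 0 to 0.39 CPM (median 0.117), with 2 libraries at 0. Every library of NOD, B6 and WSB was above every library of NZO, AJ, 129 and PWK, while Cast overlapped both sides. The range was 3.52 log2 units (adjusted p = 4.01e-14 by edgeR), and at these counts the low values carry wide counting error. Zfp947 shares 8.54% of its 50-base words with 2210404O09Rik, and with that gene's counts added the range was 1.58 (adjusted p = 4.42e-08 by edgeR). The lower calls of Zfp947 in AJ and PWK and its higher call in B6 then ended, at -0.3, -0.25 and 0.39 (adjusted p = 0.164, 0.269 and 0.0541 by edgeR).

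Zfp956 on chromosome 6 was highest in NZO at 8.19 to 9.69 CPM (median 9.28) and lowest in PWK at 2.84 to 3.78 CPM (median 3.33), a range of 1.46 log2 units (adjusted p = 2.71e-15 by edgeR). NOD, at 3 to 4.38 CPM (median 3.75), and WSB, at 3.17 to 5.24 CPM (median 3.92), overlapped PWK, and Cast spread from 4.59 to 13.8 CPM. Zfp956 shares 6.55% of its 50-base words with Zfp783, which overlaps it on the same strand. Zfp783 averaged 4.37 CPM in B6 and 0.0971 CPM in Cast. The sum of both was still highest in NZO (mean 13.1 CPM) and lowest in PWK (3.5 CPM), with B6 at 12.4 CPM and Cast at 8.29 CPM. Zfp951 on chromosome 5 was highest in WSB at 0.892 to 2.63 CPM (median 1.83) and lowest in NOD at 0.232 to 0.747 CPM (median 0.357), a range of 2.21 (adjusted p = 1.21e-11 by edgeR). Zfp958 on chromosome 8 was highest in Cast at 6.53 to 9.53 CPM (median 7.77) and lowest in 129 at 3.11 to 4.36 CPM (median 3.91), a range of 0.99 (adjusted p = 1.80e-11 by edgeR). For Zfp956, Zfp951 and Zfp958 the libraries of the highest and lowest strain did not overlap.

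**Figure D2:**
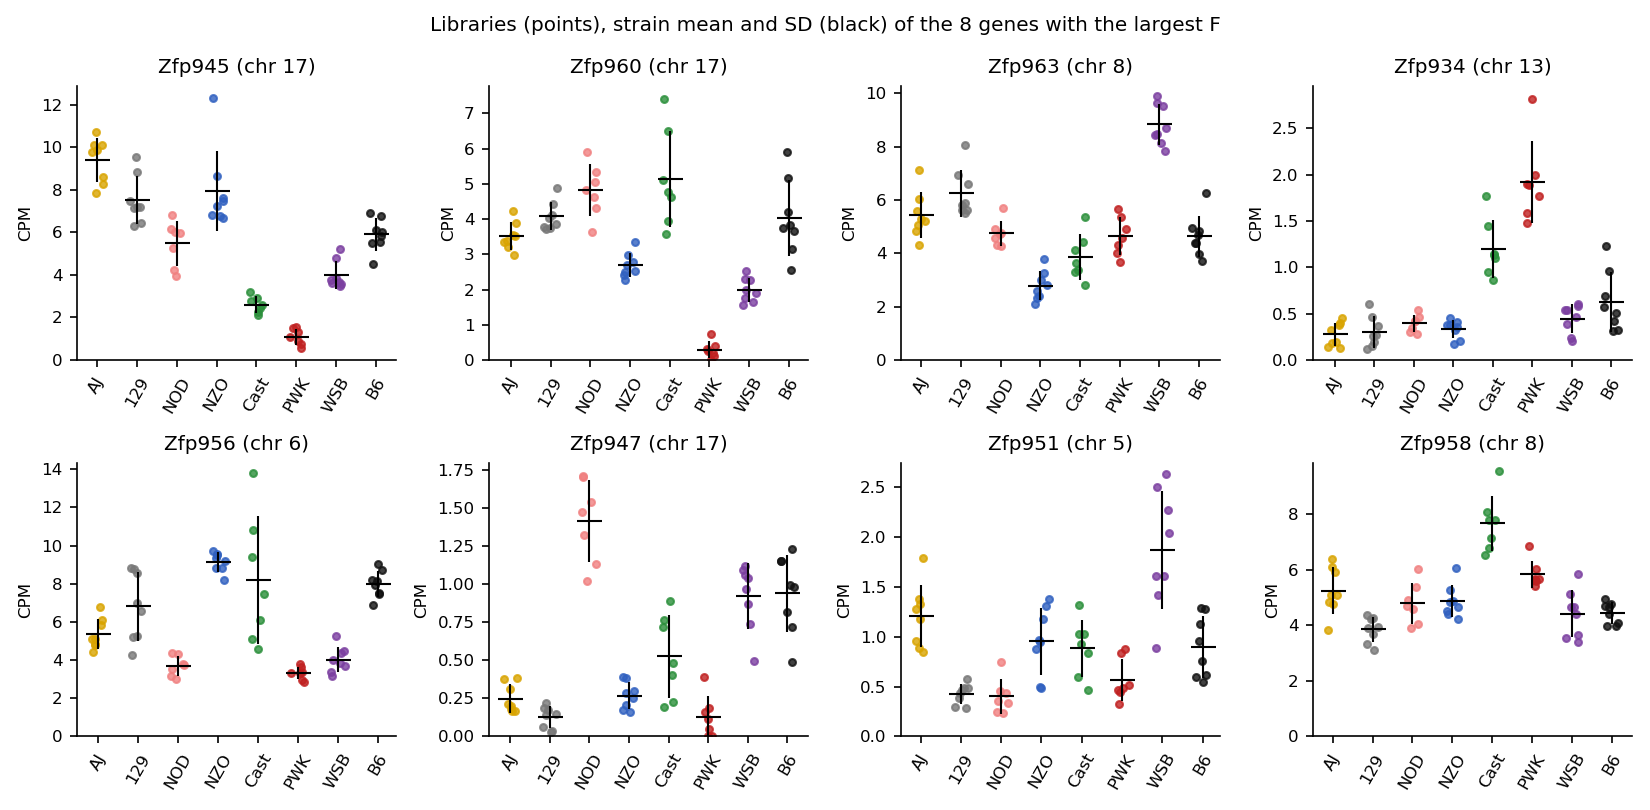
Each panel plots one of the 8 members with the largest F over strains; the vertical axis is CPM from 0, points are libraries, and the black bar with whiskers is the strain mean and SD. PWK sits at the bottom for Zfp945 (mean 1.1 CPM) and Zfp960 (0.29 CPM) and at the top for Zfp934 (1.92 CPM), and WSB stands apart for Zfp963 (8.83 CPM).

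Strains shared some of their high and low members, and an outlying strain also moves the mean of the other 7. Zfp960, at 0.29 CPM in PWK, was called higher in AJ, 129, NOD, Cast and B6. Zfp945 was called higher in NOD by 0.28, at 5.48 CPM in NOD and 5.49 CPM as the mean of the other 7. The counts by strain are thus not counts of separate genes. In Cast, 18 of the 31 tested members were called against the other 7 strains, 10 higher and 8 lower, where 61.8% of all genes were called, 33.8% higher and 27.9% lower. In PWK, 13 were called, 5 higher and 8 lower, against 41.0% of all genes, 20.6% higher and 20.3% lower. In WSB, 12 were called, 7 higher and 5 lower, against 38.3% of all genes, 21.4% higher and 17.0% lower. These shares of the members were 58.1%, 41.9% and 38.7%, close to the background of each strain.

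In 129, 14 members were called (45.2%), 7 in each direction, against 25.6% of all genes, 14.2% higher and 11.4% lower. In B6, 12 were called (38.7%), 9 higher and 3 lower, against 26.2% of all genes, 15.0% higher and 11.2% lower. In NOD, 10 were called (32.3%), 7 higher and 3 lower, against 21.6% of all genes, 11.9% higher and 9.79% lower. AJ had 9 called (29.0%), 5 higher and 4 lower, against 31.7% of all genes, 16.8% higher and 14.9% lower. NZO had 9 called (29.0%), 3 higher and 6 lower, against 27.3% of all genes, 14.6% higher and 12.7% lower. B6 is the strain whose genome the build represents, and whether reads of the other strains mapped equally well was not tested.

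Beside the 8 genes described above, PWK was higher in Zfp935, at 2.1 ± 0.283 CPM (SD, n = 7) in PWK and 1.27 ± 0.114 CPM as the mean of the other 7, for a difference in log2 of 0.73 (SE 0.14, adjusted p = 1.79e-05 by edgeR). Nearly all 50-base words of Zfp935 also stand in Gm49359, which overlaps it on the same strand. WSB was lower in Zfp937 on chromosome 2, at 0.405 ± 0.18 CPM (SD, n = 8) in WSB and 1.29 ± 0.209 CPM as the mean of the other 7 (difference -1.64, SE 0.19, adjusted p = 3.81e-10 by edgeR). In WSB 3 of the 8 libraries of Zfp937 lay below every other library, and the rest overlapped the low end of NZO. Zfp937 shares 28.75% of its 50-base words with Zfp442, which averaged 1.92 CPM in WSB (SD 0.448, n = 8), its highest strain, and 0.494 to 1.59 CPM in the other strains. With the counts of Zfp442 added, an alternative chosen after the data were seen, the lower call in WSB ended (-0.08, adjusted p = 0.671 by edgeR) and the range over strains was 0.66 in place of 1.9. WSB was also lower in Zfp943, at 12.3 ± 1.25 CPM in WSB and 17.5 ± 2.87 CPM over the other 7 (difference -0.49, adjusted p = 2.30e-07 by edgeR).

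Cast was lower in Zfp950 on chromosome 19, at 4.15 ± 0.818 CPM (SD, n = 7) in Cast and 6.56 ± 0.92 CPM over the other 7 strain means (difference -0.65, SE 0.1, adjusted p = 2.53e-07 by edgeR), with 5 of 7 libraries below all others. Cast was also lower in Zfp964 by a difference of -0.66 (adjusted p = 6.95e-04 by edgeR). The higher call of Zfp948 in Cast came with a wide spread: Cast_6 had 13.0 CPM, Cast_5 9.54 CPM and Cast_1 5.73 CPM, all above every library of the other strains, while the other 4 Cast libraries had 1.7 to 3.43 CPM. The difference was 0.7 with all libraries, 0.34 without Cast_6 (adjusted p = 0.0496 by edgeR) and 0.51 without Cast_5 (adjusted p = 0.00735 by edgeR), alternatives chosen after the data were seen. The lymphocyte marker sums of Cast_6 and Cast_5 were the lowest of the 61 libraries, at 0.51 and 0.696 CPM, and their muscle fibre sums ranked 39 and 23 of 61. Cast_5 also had the lowest adipocyte sum, at 477 CPM. The part of these in the result was not tested.

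B6 was higher in Zfp932 on chromosome 5, at 5.08 ± 0.687 CPM (SD, n = 8) in B6 and 3.36 ± 0.751 CPM over the other 7 strain means (difference 0.63, SE 0.12, adjusted p = 1.86e-05 by edgeR). Zfp932 shares 34.91% of its 50-base words with Gm15446. The sum of both was highest in WSB at 14.2 ± 1.67 CPM, with B6 at 13.1 ± 1.61 CPM (SD, n = 8 each). The lower calls in B6 were small: Zfp954 at -0.26, Zfp949 at -0.24 and Zfp958 at -0.21 (adjusted p = 0.0372, 0.0266 and 0.0375 by edgeR), and near the threshold. Without B6_5 the differences were -0.26, -0.2 and -0.21, and the calls ended, with adjusted p of 0.056, 0.0807 and 0.0623. AJ was lower in Zfp940 on chromosome 7, at 1.46 ± 0.107 CPM (SD, n = 8) in AJ and 2.44 ± 0.431 CPM over the other 7 (difference -0.72, adjusted p = 2.26e-05 by edgeR). AJ was higher in Zfp938 on chromosome 10, at 5.26 ± 0.753 CPM in AJ and 3.65 ± 0.673 CPM over the other 7 (difference 0.55, adjusted p = 3.78e-06 by edgeR). NOD was lower in Zfp953 (difference -0.64, adjusted p = 0.00192 by edgeR), and NZO was higher in Zfp949 (difference 0.44, adjusted p = 8.81e-06 by edgeR).

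The remaining members had mostly smaller ranges. Zfp949 on chromosome 9, one of the most abundant members, had a mean of 15.9 CPM in WSB, its highest strain, and 8.4 CPM in 129, its lowest (range 0.92 log2 units, adjusted p = 3.59e-11 by edgeR), without overlap. Zfp961 on chromosome 8 had 3.25 CPM in WSB and 1.76 CPM in NZO (range 0.88), also without overlap. Zfp953 on chromosome 13 had 2.0 CPM in B6 and 1.01 CPM in NOD (range 0.99), again without overlap. Zfp933 (129 at 9.32 CPM, NZO at 6.89 CPM), Zfp954 (Cast at 4.17 CPM, B6 at 3.04 CPM) and Zfp946 (PWK at 5.94 CPM, Cast at 4.17 CPM) had ranges of 0.43, 0.46 and 0.51, and the libraries of their highest and lowest strains overlapped. Zfp954 was highest in Cast through library Cast_5 at 8.29 CPM: the other 6 Cast libraries had 2.63 to 4.39 CPM (mean 3.48), and NOD had a mean of 4.13 CPM. The smallest ranges among the called members were 0.38 in Zfp952 (adjusted p = 0.0282 by edgeR) and 0.39 in Zfp942. Zfp957, which was not called, had a wide range of 1.52 at a mean of 0.15 CPM, and its strains overlapped.

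Reads could be split between copies in several members. A near-identical copy elsewhere in M21 was found for 8 of the 32, and 6 of these had a copy in the count table: Zfp935, Zfp934, Zfp960, Zfp959, Zfp931 and Zfp932. With the copies' counts added, all 6 sums were still called over the 8 strains. The range of the sum was 1.25 for Zfp931 in place of 0.61, and 1.71 for Zfp932 in place of 1.27. Each copy of Zfp931 in the table shared at most 8.3% of its 50-base words. Some were far more abundant: in Cast, Gm14325 averaged 29.0 CPM and Gm14391 27.8 CPM, against 3.62 CPM for Zfp931, while other copies were lower than Zfp931. The sum for Zfp931 is thus largely the level of other genes. The part of split reads in these sums was not tested. Gm15446, the copy of Zfp932, was highest in WSB, with a mean of 10.1 CPM (SD 1.26, n = 8), and lowest in PWK, with a mean of 2.22 CPM (SD 0.53, n = 7), and Zfp932 itself was lowest in PWK at 2.11 CPM. The range was 1.15 for Zfp935 in place of 0.9, and 0.38 for Zfp959 in place of 0.43.

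Members of one cluster did not share one strain pattern as a rule. For each pair of tested members, Pearson's r was taken over the 8 strain means of log2 CPM and, separately, over the 61 libraries with the strain means taken off. These are descriptions, since the pairs share libraries and depth. The 25 pairs within a cluster had a median r of 0.20 over strain means (range -0.95 to 0.86). The 38 pairs on one chromosome outside a cluster had a median of 0.11, and the 402 pairs on different chromosomes a median of 0.03 (range -0.95 to 0.93). An r above 0.7 was seen in 6 of the 25 cluster pairs (24.0%), in 7.9% of the pairs on one chromosome and in 3.7% of those on different chromosomes. Among all genes tested without the Zfp genes, 217247 pairs with starts within 1 Mb had a median of 0.02, and 7.2% were above 0.7. Within strains the medians were 0.19 for cluster pairs, 0.13 for pairs on one chromosome and 0.09 for pairs on different chromosomes.

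**Figure D3:**
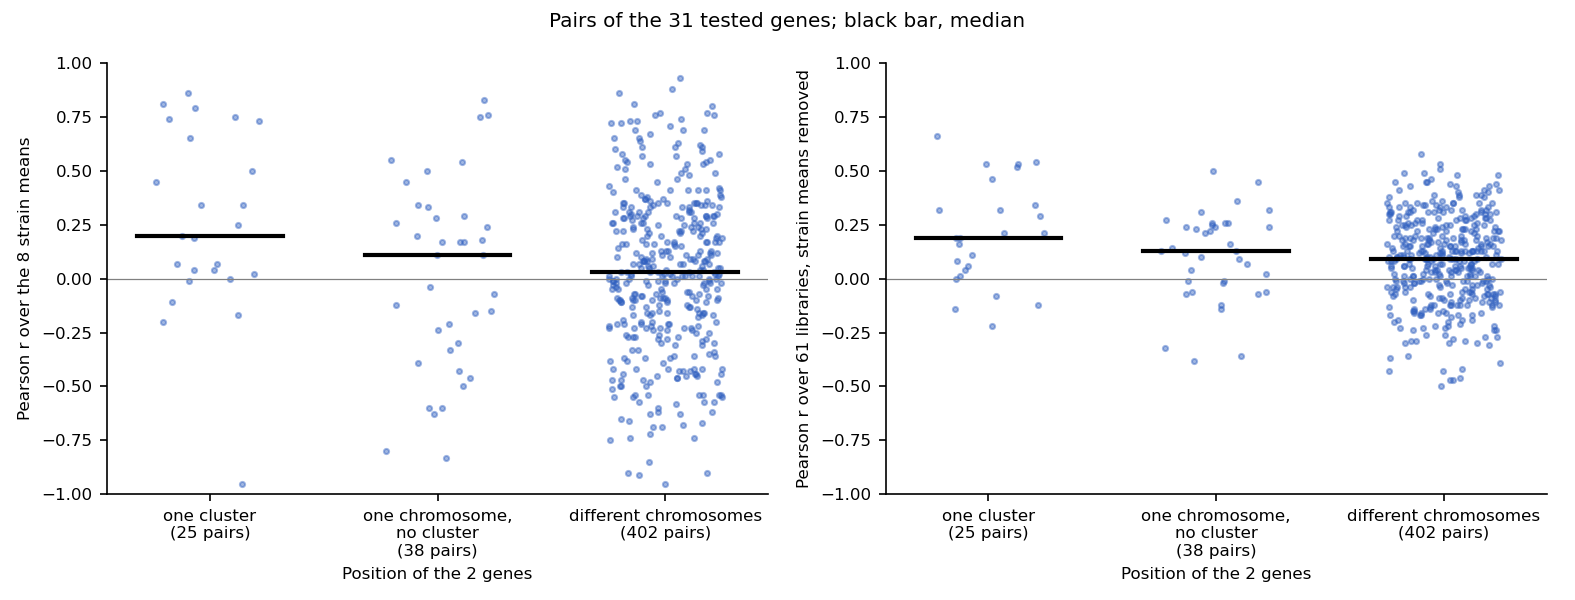
Points are pairs of the 31 tested genes, grouped by whether the genes lie in one cluster, on one chromosome outside a cluster or on different chromosomes; the vertical axes are Pearson's r over strain means (left) and within strains (right), and black bars are medians. Cluster pairs spread nearly as widely as the others around a median of 0.20 on the left.

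The pairs of the small clusters had r of 0.65 or more over strain means, but not all calls were shared. On chromosome 8, r over strain means was 0.79 for Zfp930 and Zfp964, 0.75 for Zfp964 and Zfp963, and 0.65 for Zfp930 and Zfp963. All 3 genes were called lower in Cast, by -0.44, -0.66 and -0.39 for Zfp930, Zfp964 and Zfp963, and higher in WSB, by 0.29, 0.38 and 0.97. Within strains the same pairs had r from -0.12 to 0.19. In NZO only Zfp963 was called, at -0.93, with Zfp930 at -0.12 and Zfp964 at -0.34. On chromosome 13, Zfp935 and Zfp934 had r = 0.86 over strain means, both with PWK highest, and r = 0.04 within strains. Zfp934 was also called in Cast, AJ, 129 and NZO, at 1.32, -1.06, -0.95 and -0.79. Zfp935 was not called there, at 0.07, -0.22, -0.3 and -0.2. These 2 genes overlap in M21 on the same strand and share copies.

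The chromosome 17 cluster did not hold together as a whole. Its 21 pairs had a median r of 0.07 over strain means. The genes at its ends, Zfp948 and Zfp945, ran opposite to each other with r = -0.95: Zfp948 was called higher in PWK and Cast (0.51 and 0.7), where Zfp945 was called lower (-2.38 and -0.94). The Cast value of Zfp948 was 0.34 without Cast_6, and r was -0.94 without Cast_6 and -0.84 without both Cast_5 and Cast_6. Between them, Zfp947 and Zfp944 had r = 0.81, Zfp942 and Zfp944 r = 0.74, and Zfp942 and Zfp943 r = 0.73. Zfp947 and Zfp944 had r = 0.08 within strains. The 6 pairs among Zfp942, Zfp943, Zfp944 and Zfp946, which were picked out by these values, had r within strains of 0.46 to 0.66, the highest between Zfp942 and Zfp946. An r of at least 0.46 was also seen in 8 of the 402 pairs on different chromosomes, up to 0.58 between Zfp938 and Zfp943, and in 1 of the 38 pairs on one chromosome outside a cluster. Zfp944 shares 8.67% of its 50-base words with Zfp942, and Zfp942 shares 4.55% with Zfp944. With the counts of Zfp942 added to Zfp944, its range over strains was 0.46 in place of 0.7 (adjusted p = 5.52e-04 by edgeR).

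**Figure D4:**
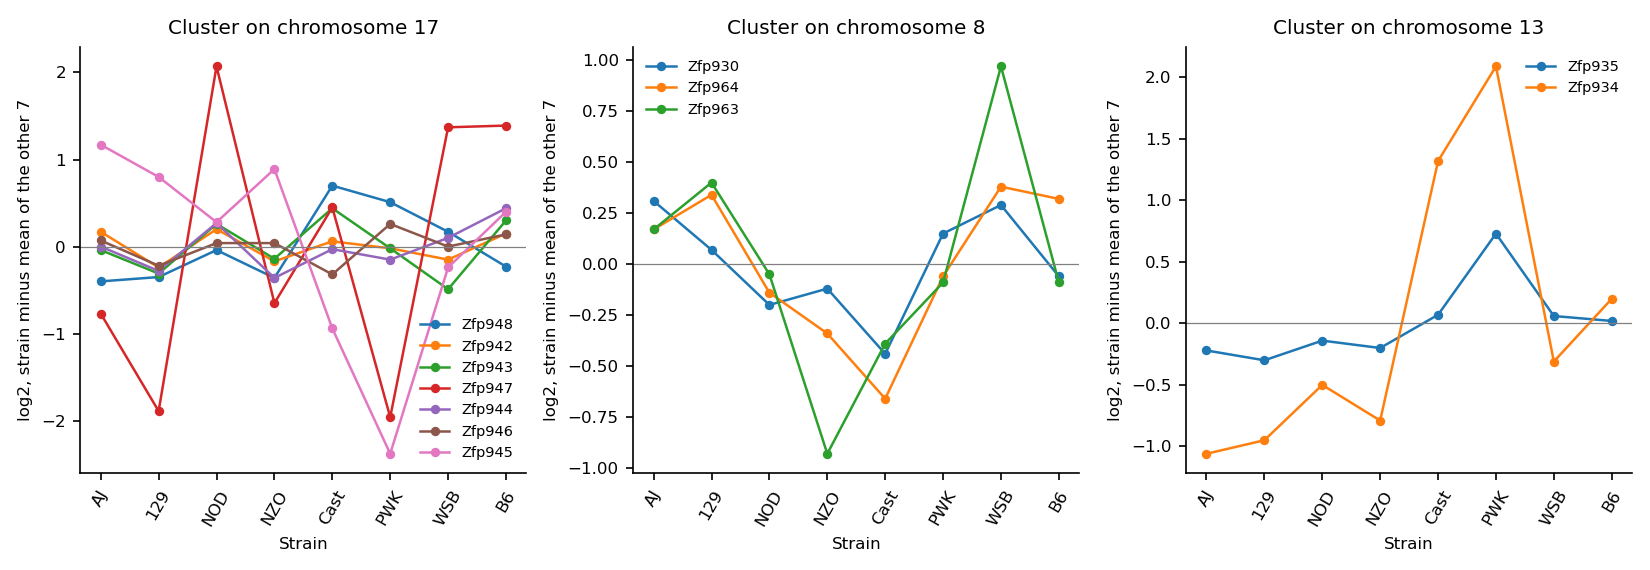
Panels are the clusters on chromosomes 17, 8 and 13; the horizontal axis lists the strains, the vertical axis is the log2 difference of a strain from the mean of the other 7, and each line is a gene. The 3 lines on chromosome 8 dip together in Cast (-0.44, -0.66 and -0.39), while on chromosome 17 Zfp945 and Zfp947 swing in different directions in AJ, 129 and NZO.

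The genes that share a start region were compared within strains. Zfp942 and Zfp943 had r = 0.52 over the 61 libraries with strain means taken off; taken strain by strain, r ran from 0.86 in NZO to -0.01 in Cast and -0.46 in WSB. Zfp944 and Zfp758 had r = 0.4 (0.59 over strain means), from 0.89 in NZO to -0.04 in NOD and -0.55 in Cast. Each of these rests on 7 or 8 libraries. Cluster members with no shared start reached like values, such as Zfp942 and Zfp946 at 0.66. The other 837 head-to-head pairs in the table, with starts within 1000 bases on opposite strands, had a median r of 0.1 within strains, and 8.8% were above 0.5, and their median over strain means was 0.17. Zfp943 had 19.6 to 22.6 CPM in Cast (median 22.3) and 10.2 to 13.6 CPM in WSB (median 12.7), with no overlap, a range of 0.82 log2 units (adjusted p = 4.96e-11 by edgeR). Zfp942 had 5.18 to 10.3 CPM in Cast (median 7.36) and 5.3 to 7.9 CPM in WSB (median 6.69), which overlapped. Zfp942 was called over the 8 strains at a range of 0.39 (adjusted p = 0.0286 by edgeR), from NOD at 8.3 CPM to 129 at 6.35 CPM, and was called in no single strain. Zfp944 ranged from 6.03 CPM in B6 to 3.72 CPM in NZO (0.7 log2 units, adjusted p = 1.63e-06 by edgeR), and Zfp758 from 8.19 CPM in Cast to 3.35 CPM in PWK (1.29 log2 units, adjusted p = 6.95e-08 by edgeR).

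**Figure D5:**
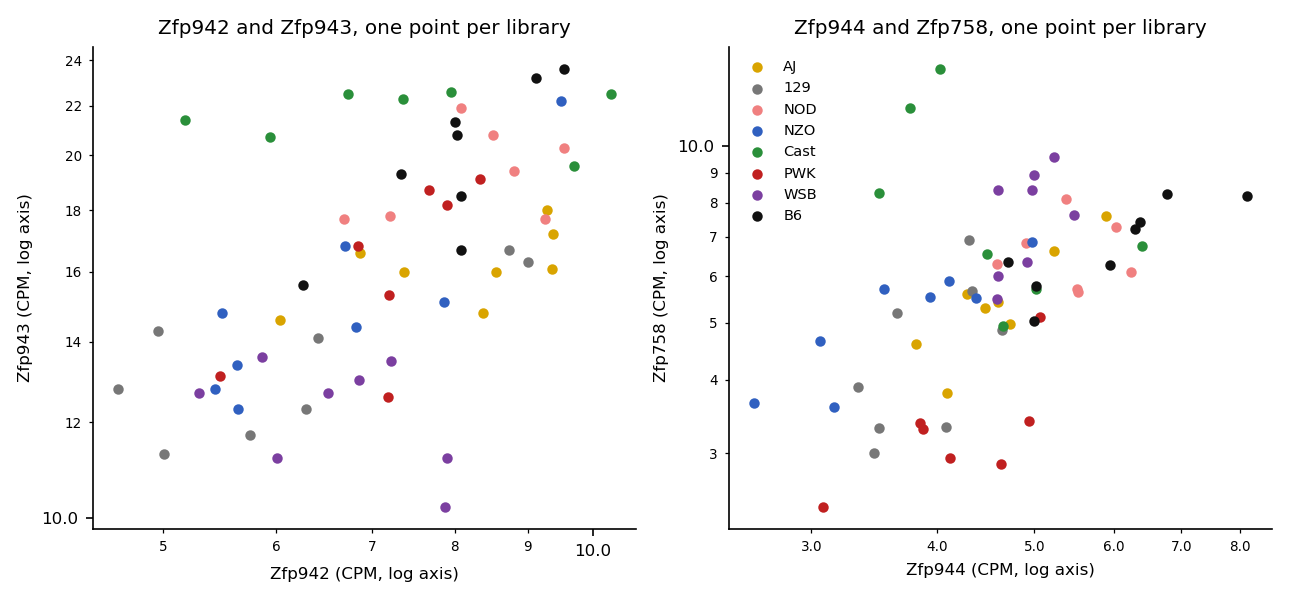
Each point is a library, coloured by strain, with CPM of the 2 genes of a head-to-head pair on log axes. For Zfp942 and Zfp943 (left) r within strains was 0.52 over all libraries, with a rising cloud in NZO (0.86) and none in Cast (-0.01) or WSB (-0.46), and the Cast points lie above the WSB points at like Zfp942 levels.

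The partners of KRAB zinc finger proteins were called about as often as all genes, mostly with small ranges. Of 24 listed genes of this silencing pathway, all were tested and 22 were called over strains (91.7%), against 85.5% of all genes tested. A call with a range of at least 1 log2 unit was seen in only 2, Uhrf1 and Suv39h2, against 39.7% of all genes tested. The median range was 0.92 in the members and 0.46 in the partners. Most partners were above the members' median level of 3.58 CPM, and the part of level in the range was not tested. Trim28, the corepressor that KRAB domains bind, had 46.5 CPM in Cast and 35.6 CPM in NZO, its highest and lowest strains (range 0.38, adjusted p = 6.75e-05 by edgeR). Setdb1, which methylates histone H3 at lysine 9, had 20.8 CPM in WSB and 12.9 CPM in NOD (range 0.69, adjusted p = 1.04e-13 by edgeR). Uhrf1, which guides maintenance DNA methylation, had 5.83 CPM in Cast and 0.463 CPM in 129 (range 3.64, adjusted p = 8.45e-19 by edgeR). Dnmt1, the maintenance DNA methyltransferase, was not called (adjusted p = 0.162 by edgeR), nor was Pphln1, a part of the HUSH complex (adjusted p = 0.482 by edgeR). Against the other 7 strains, 12 partners were called higher and 5 lower in Cast, where 33.8% of all genes were called higher and 27.9% lower. In 129, 0 were called higher and 5 lower, where 14.2% of all genes were called higher and 11.4% lower. In NZO, 3 were called higher and 6 lower, where 14.6% of all genes were called higher and 12.7% lower. The shares of the partners called in either direction were 20.8% in 129 and 37.5% in NZO, against 25.6% and 27.3% of all genes.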

How the data were processed

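Polyadenylated RNA of skeletal muscle was sequenced in 61 libraries of 8 strains, grouped by title. The values deposited were expected counts, that is estimated reads for each of 19462 genes (80.4% of them whole numbers), and variance-stabilised values on a log2 scale, used only in alternatives. Per the submitters' processing notes, the build was GRCm38 and DESeq2 was used. Which aligner and counter were used, and whether strand was read, is not given in the sources used here. Whether reads of overlapping genes were told apart is therefore not known. By their whole spans, introns included, 11 members overlap another gene.

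The design assumed whole counts, so the expected counts were rounded to whole numbers. They were tested with edgeR 4.0.16 (R 4.3.3): TMM scaling, filterByExpr (16682 genes kept), 1 quasi-likelihood fit with strain as the factor and 53 residual degrees of freedom, and an F test over the 8 strains and for each strain minus the mean of the other 7, weighted equally. P-values were adjusted by Benjamini-Hochberg over all genes tested, with a threshold of 0.05. SE was derived from each log2 difference and the square root of its F. The fit was checked on simulated counts.

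Correlations used log2 CPM with a prior count of 2. Copies were searched in GENCODE M21 with BLAST 2.17.0 (at least 95% identity over 200 bases and 50% of the shorter transcript) and as shared words of 50 bases. Promoter windows are RefSeq's on GRCm38.p6. The 8 members with the largest F are given by library, and in each strain up to 3 members per direction were named from the largest calls. The members and the lists were chosen with earlier results of these data known.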

Additional observations from a re-analysis of the deposited data

Results flagged for a closer look

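Of 64 checks of the 8 genes with the largest F in the 8 strains, 1 found a library far from the others of its strain: Zfp945 in library NZO_1 at 12.3 CPM, where the other 7 NZO libraries had 6.67 to 8.66 CPM. The gap to the nearest library was 0.57 of the range over the 8 libraries, on the log2 scale. Chance flags about 1 in 20 groups. NZO_1 had an adipocyte marker sum of 3948.5 CPM, which ranked 2 of 61, a muscle fibre sum of 141297.5 CPM, which ranked 58, and a lymphocyte sum of 3.21 CPM, which ranked 13. The part of these in the value was not tested. Zfp945 was called higher in NZO by 0.89 with NZO_1 and by 0.78 without it (adjusted p = 1.89e-09 by edgeR).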

How the results depend on the processing

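The count of members called over all strains was 29, was 28 or 29 under each other scaling, tool, filter and covariate tried, and was 25 to 29 when 1 replicate number was left out. The counts per strain stayed within 1.5 times under every alternative, with 18 in Cast, 15 without Cast_6 and 19 without Cast_5. Zfp946 ended over strains without Cast_5 (adjusted p = 0.0541 by edgeR). The replicate numbers did not pair the libraries: same-numbered libraries had a median correlation of deviations of 0.011, against 0.0 for the others, and 8 libraries were closest to their own number. With a replicate block, 28 members were called, Zfp959 ended (range 0.46, adjusted p = 0.0607 by edgeR) and Zfp958 in B6 ended (-0.21, adjusted p = 0.0514 by edgeR). The members called over strains with the largest p, Zfp942, Zfp946, Zfp952 and Zfp959, each ended in several replicates-out fits. Zfp959 also ended in the edgeR fit when RLE, the size factor method of DESeq2, took the place of TMM (adjusted p = 0.0645 by edgeR). With hepatocyte, lymphocyte and keratinocyte sums as covariates, Zfp942 had an adjusted p of 0.0501 and Zfp939 was called (0.00424). The median correlation within clusters was 0.20 and 0.13 to 0.28 under the alternatives. Genes with strain means under 1 CPM, such as Zfp947 with 1 to 8 counts in 129, give little precision, so small differences in them were not detectable at this depth.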

Other observations

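These values were chosen after the data were seen and are given as descriptions. Some neighbours of the clusters had nearly the strain pattern of a member. Gm4944, which is named Zfp994 in M21, lies between Zfp947 and Zfp944 on chromosome 17 and averaged 4.42 CPM. It was highest in NOD at 6.48 CPM and lowest in PWK at 2.1 CPM, and its strain means had r = 0.97 with those of Zfp947, with which it shares 4.39% of the 50-base words of Zfp947. Gm10033 in the chromosome 8 cluster was highest in WSB at 0.911 CPM and lowest in NZO at 0.427 CPM, with r = 0.93 to Zfp963. Zfp869, between Zfp964 and Zfp963, had r = -0.52 to Zfp963, with Cast highest at 12.9 CPM and WSB lowest at 7.45 CPM.

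Pairs on different chromosomes reached values as extreme as any in a cluster. Zfp931 on chromosome 2 and Zfp932 on chromosome 5 had r = 0.93 over strain means and 0.22 within strains, and both were lowest in PWK. Zfp934 on chromosome 13 and Zfp945 on chromosome 17 had r = -0.95, and Zfp934 and Zfp948 had r = 0.88. With 8 strain means, a value that PWK and Cast set apart weighs on every such r. Of the 24 genes of the table that are named Zfp900 to Zfp999 only in M21, 21 were tested and all 21 were called over strains, where 85.5% of all genes tested were called.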
